A study of Mus musculus with 17 samples.

Results

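Broad H3.3 domains of lens fibers are wide stretches of chromatin that carried the histone variant in both replicates of fiber cells from the newborn mouse lens. Islands are stretches of the genome that a peak caller, SICER2, marked as holding more immunoprecipitated reads than background. The domains were chosen by their length in fibers: islands of at least 20000 bp on chromosomes 1 to 19 were kept in each of the 2 fiber replicates, those overlapping a kept island of the other fiber replicate were retained, and overlapping ones were merged. There were 312 such domains among 35370 merged fiber regions. They covered 14.02 Mb, or 0.569% of chromosomes 1 to 19. All fiber lengths, fiber cover and fiber read densities of these domains follow from that choice and are given as descriptions without a test, whereas the epithelium islands took no part in it.

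H3.3 ChIP-seq had been carried out on lens epithelium and lens fibers microdissected from CD1 mice, a wild-type outbred strain, with the sample titles naming postnatal day 1. The labels name no genotype, treatment or transgene, and the groups differ by the compartment of the lens, with 2 libraries from epithelium and 2 from fibers. Each library was made from 150 pooled lenses and 12 µg of chromatin by the labels, while the study's methods give another number of lenses and, like the protocol text, an earlier newborn age. The labels call the 2 libraries of a compartment biological replicates. SICER2 had called 10389 islands in epithelium replicate 1, 14434 in epithelium replicate 2, 27059 in fiber replicate 1 and 35940 in fiber replicate 2. The summed counts of reads in islands were 1331369 and 1430373 in epithelium and 5041885 and 5359085 in fibers, and the sequencing depth of the libraries is unknown. The lower island number of epithelium therefore cannot be told apart from a lower depth or weaker enrichment, and an uncovered stretch means only that no island was called there. An exact permutation test of 2 libraries against 2 cannot pass the usual threshold, so that no test was run and each value stands per library or as a mean ± SD. Bisulfite libraries of the series and its input sample were not analysed here.

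H3.3 is the histone H3 variant that chaperones place into nucleosomes outside of DNA replication, mainly at active promoters, enhancers and transcribed gene bodies. The lens holds a single layer of dividing epithelial cells that withdraw from the cell cycle and differentiate into elongated fibers. Fibers then accumulate crystallins, build a specialized membrane skeleton and degrade their nuclei and other organelles.

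Marker genes of the lens and of other tissues were looked up in the domains and islands. Of 12 lens fiber markers, 8 had their start in a broad domain, among them the beaded filament gene Bfsp1, the membrane protein gene Lim2, the water channel gene Mip, the gap junction gene Gja3, and the crystallin genes Crygs, Cryba1 and Crybb1, beside 1.79% of all protein-coding starts on chromosomes 1 to 19. No marker of lens epithelium (0 of 5), retina (0 of 5), endothelium (0 of 4), blood and immune cells (0 of 5) or cornea (0 of 3) did so. Beside the share of 1.79%, a count of 0 among 3 to 5 genes cannot tell these cell types apart. The domains were chosen by fiber island length, so that the count of fiber markers in them is a description. In the gene body, 11 of 12 fiber markers and 4 of 5 epithelium markers had an island in both fiber replicates, beside 0 of 5 retina, 2 of 4 endothelium, 1 of 5 blood and immune and 0 of 3 cornea markers. Over all protein-coding genes on chromosomes 1 to 19, 10538 of 20807 had an island in both fiber replicates. Islands of both epithelium replicates lay in 5 of 12 fiber and 2 of 5 epithelium markers. They also lay in 1 of 5 retina, 1 of 4 endothelium, 0 of 5 blood and immune and 0 of 3 cornea markers. By replicate, 2 and 4 of the 5 epithelium markers had an epithelium island. The share of all protein-coding genes with an island in both epithelium replicates was not computed. These epithelium markers thus did not set the epithelium libraries apart from the fiber libraries.

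The stretches upstream of the crystallin genes within the domains, and of Sox1 in the widest domain with 1 start, are shown because the results turn on these genes. Each is the 200 bases before the start (the outermost of the GENCODE and RefSeq starts), written 5′ to 3′ on the strand of the gene and read from the reference genome GRCm38.p6 (mm10). Capitals mark 4 short motifs searched on both strands: the TATA box (TATAAA), the CCAAT box (CCAAT), the GC box (GGGCGG) and the core of the binding site of Maf factors (TGCTGA). The windows lie at chr17:31677607-31677806 (plus strand) for Cryaa, chr11:77725294-77725493 (minus) for Cryba1, chr5:112252519-112252718 (minus) for Cryba4, chr5:112255615-112255814 (plus) for Crybb1, chr5:113070118-113070317 (minus) for Crybb2, chr5:113081585-113081784 (minus) for Crybb3, chr16:22811578-22811777 (minus) for Crygs and chr8:12395095-12395294 (plus) for Sox1. None of these windows holds an exon base of an annotated protein-coding transcript, and exons of noncoding transcripts were not checked.
Cryaa: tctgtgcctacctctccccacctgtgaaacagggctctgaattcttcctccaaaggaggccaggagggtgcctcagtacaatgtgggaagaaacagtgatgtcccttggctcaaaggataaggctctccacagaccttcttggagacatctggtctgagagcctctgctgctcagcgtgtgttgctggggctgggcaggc
Cryba1: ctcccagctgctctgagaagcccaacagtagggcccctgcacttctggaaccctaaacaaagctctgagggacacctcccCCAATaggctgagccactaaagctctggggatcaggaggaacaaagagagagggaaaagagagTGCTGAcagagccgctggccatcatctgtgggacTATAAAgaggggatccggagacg
Cryba4: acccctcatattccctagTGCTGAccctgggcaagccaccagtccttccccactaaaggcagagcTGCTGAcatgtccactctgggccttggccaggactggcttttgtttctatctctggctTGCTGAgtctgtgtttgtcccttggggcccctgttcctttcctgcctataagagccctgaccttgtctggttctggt
Crybb1: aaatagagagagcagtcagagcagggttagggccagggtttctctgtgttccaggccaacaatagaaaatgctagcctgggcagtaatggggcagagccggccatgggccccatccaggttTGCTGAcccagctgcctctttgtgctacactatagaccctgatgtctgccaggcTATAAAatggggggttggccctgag
Crybb2: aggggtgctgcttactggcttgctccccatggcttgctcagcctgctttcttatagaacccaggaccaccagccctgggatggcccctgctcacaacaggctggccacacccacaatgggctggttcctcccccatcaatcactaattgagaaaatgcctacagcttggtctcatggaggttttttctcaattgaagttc
Crybb3: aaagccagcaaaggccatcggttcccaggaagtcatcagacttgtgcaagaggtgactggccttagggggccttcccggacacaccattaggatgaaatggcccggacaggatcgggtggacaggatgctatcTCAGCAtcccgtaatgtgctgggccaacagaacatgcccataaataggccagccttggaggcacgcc
Crygs: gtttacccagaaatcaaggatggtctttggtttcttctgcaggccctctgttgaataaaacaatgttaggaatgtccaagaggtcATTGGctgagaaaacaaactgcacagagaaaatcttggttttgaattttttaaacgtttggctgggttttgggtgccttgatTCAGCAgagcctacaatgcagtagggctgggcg
Sox1: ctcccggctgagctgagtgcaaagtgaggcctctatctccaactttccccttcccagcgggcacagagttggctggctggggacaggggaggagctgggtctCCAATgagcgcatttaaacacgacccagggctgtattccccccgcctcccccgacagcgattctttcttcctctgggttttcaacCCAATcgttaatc

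The Maf core was found in 5 of 7 crystallin windows, the TATA box and the CCAAT box in 2 of 7 each, and the GC box in 0 of 7. In Cryba1, the CCAAT box, the Maf core and the TATA box began 120, 57 and 23 bases before the start. In Crybb1, the Maf core began 79 and the TATA box 25 bases before the start. Cryba4 held the Maf core at 182, 135 and 77 bases before the start. The windows of Cryaa and Crybb2 held none of these letters, which says nothing about the binding of the factors. In Cryaa, the window ended just before the GENCODE start (31677807), and the RefSeq start lay downstream at 31677931. The same held for Crygs (22811577 and 22811410, minus strand) and Sox1 (12395295 and 12395519). Bases between these starts lay outside the windows, so any motif there was not counted. Over all 372 windows of genes with a start in a domain, the GC box occurred in 50.5%, the CCAAT box in 34.7%, the Maf core in 10.2% and the TATA box in 5.65%. Over the windows of all 20807 protein-coding genes, the shares were 38.0%, 31.2%, 11.7% and 9.31%, and over the 7487 genes that start in narrower fiber regions they were 55.3%, 31.7%, 9.79% and 4.37%. The windows of domain genes were thus closer to those of other genes under fiber islands than to those of all genes, and the median number of CG dinucleotides in a window was 12 in domain genes, 13 in narrower regions and 7 over all genes.

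The domains ranged from 21600 to 225600 bp with a median of 37400 bp. There were 75 domains below 30000 bp, 150 of 30000 up to 50000 bp and 87 of 50000 bp or more, of which 11 reached 100 kb. Islands of at least 20000 bp made up 732 of 27023 islands (2.71%) in fiber replicate 1 and 529 of 35855 (1.48%) in fiber replicate 2 on chromosomes 1 to 19. In epithelium, there were 19 and 27 islands of that length in replicates 1 and 2 (0.183% and 0.187% of islands), of which 12 and 13 lay in the domains. Most islands of that length were thus called in fibers, in both replicates. Depth is unknown, and its part in island length was not tested.

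Each fiber replicate covered nearly the whole of the merged outlines, 96.4% in replicate 1 and 94.4% in replicate 2. The longest island within a domain had a median of 31000 bp in fiber replicate 1 and 28000 bp in replicate 2, beside 6600 and 6000 bp in epithelium replicates 1 and 2. It was longer in fiber replicate 1 in 178 domains, longer in replicate 2 in 129 and equal in 5. A domain held 1 island in each of the fiber replicates in 61 of 312 cases, and the others held more than 1 in at least one replicate. Epithelium islands of at least 20000 bp lay in 13 domains, in 8 of them in both epithelium replicates.

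**Figure D1:**
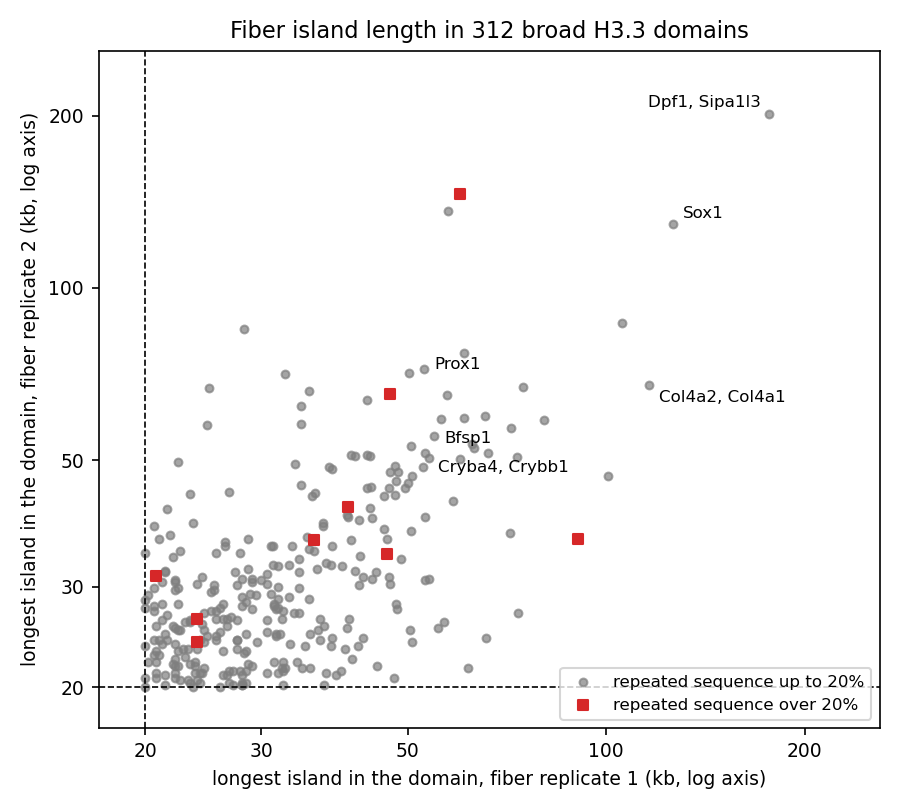
Longest island in each of the 312 domains in fiber replicate 1 (x axis) and fiber replicate 2 (y axis), in kb on log axes, with 1 point per domain, dashed lines at the length limit of 20 kb and squares for domains of over 20% repeated sequence. All points lie at or above the limit in both replicates by the rule, with medians of 31000 and 28000 bp, and the domains of Dpf1 and Sipa1l3 and of Sox1 lie at the upper right.

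The length limit divides a continuous range, and limits of 15000 and 30000 bp would give 641 and 104 domains. The shortest domain, of 21600 bp at the start of Zbtb8b, rested on islands of 20000 and 20800 bp in fiber replicates 1 and 2. It was followed by a domain of 22000 bp at Dock5 (20800 and 21200 bp) and a domain of 22200 bp in the body of the ubiquitin ligase gene Ube3b (20000 and 20000 bp). Left out were 383 islands of fiber replicate 1 and 185 of fiber replicate 2 that reached the limit in that replicate only. All but 1 of these had a shorter partner in the other replicate, with a median of 13600 bp in replicate 2 and 14000 bp in replicate 1. The widest left out in replicate 1 held Csnk1g2 and Gm49322 (50000 bp beside 17200 bp), the cytoplasmic actin gene Actg1 with Fscn2 and Faap100 (47600 beside 12400 bp), and the elongation factor gene Eef2 with Pias4, 4930442H23Rik and Dapk3 (45000 beside 19800 bp). Those left out in replicate 2 lay at Cwc22 (64800 beside 0 bp) and in the bodies of Mtmr3 (49200 beside 16200 bp) and Prkag2 (45000 beside 18000 bp).

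The epithelium covered less than the full extent of the fiber domains but more than it covered of other fiber regions. Epithelium islands took up 38.9% of the domains in replicate 1 and 40.4% in replicate 2 (39.7% ± 1.02, SD, n = 2). In the 19501 narrower fiber regions, which are merged fiber islands called in both replicates without a base in a domain, they took up 15.7% and 16.7% (16.2% ± 0.752, SD, n = 2). Cover was higher in the domains than in the narrower regions in each of the 2 epithelium libraries, and no p is given because regions are not replicates. The sets also differ in length, with medians of 37400 and 6600 bp, and in the 4964 narrower regions of at least 10000 bp the cover was 20.01% and 20.3%. Among the domains themselves the cover was 36.2% and 37.1% below 30000 bp, 38.9% and 40.2% from 30000 up to 50000 bp, and 39.9% and 41.6% above.

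An island of both epithelium replicates was present in 266 domains, an island of one of them in 26, and none in 20 (6.41%), with 40 lacking one in replicate 1 and 26 in replicate 2. Of the narrower fiber regions, 56.6% had no epithelium island, and 33.3% of those of at least 10000 bp. At least 50% of the length was covered in both epithelium replicates in 79 domains (25.3%), compared with 4.25% of the narrower regions and 5.72% of those of at least 10000 bp. Of these 79, only 7 were covered by 90% or more in both epithelium replicates. The remaining 213 domains had an epithelium island and lay below 50% in at least one replicate, which makes partial cover the usual state. Cover per domain in the 2 epithelium replicates differed by a median of 7.76 percentage points (Pearson r = 0.844 across 312 domains, which share their libraries and outlines and are not independent replicates).

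**Figure D2:**
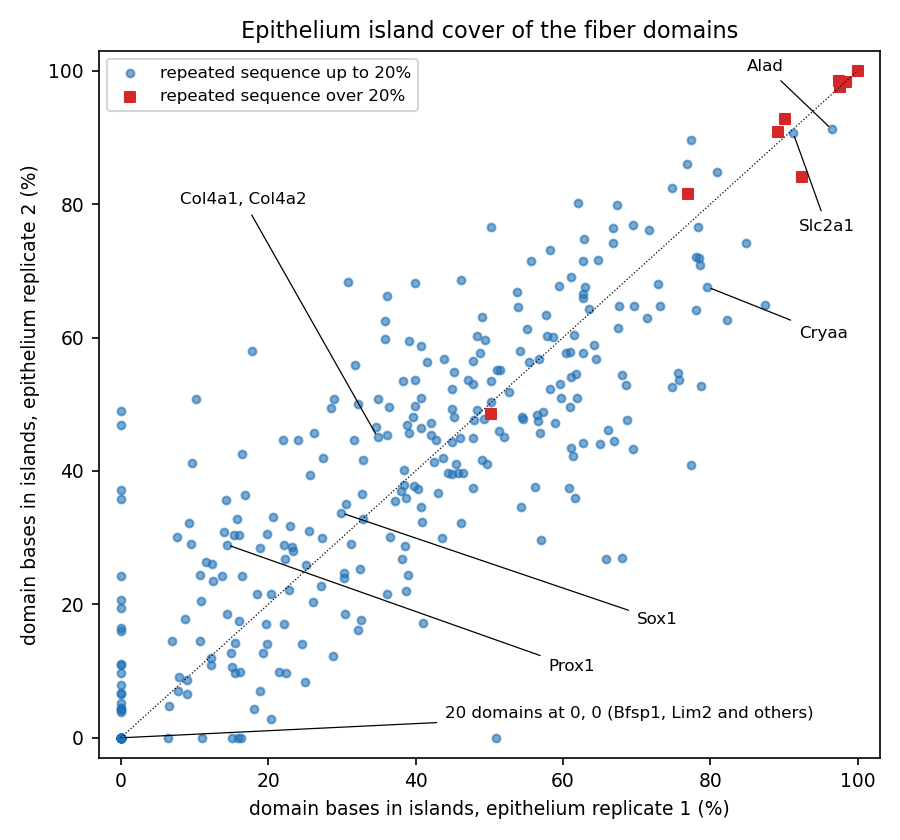
Percent of each of the 312 domains covered by islands of epithelium replicate 1 (x axis) and of epithelium replicate 2 (y axis), with 1 point per domain. Domains spread from 0% to 100% in both replicates, 20 lie at 0 in both, Bfsp1 and Lim2 among them, and 79 are at 50% or more in both.

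Where epithelium islands lay in the domains, their reads per kb of island length were close to those of other epithelium islands. The median was 29.7 reads per kb in the domains and 28.2 elsewhere in epithelium replicate 1, and 29.4 and 27.9 in replicate 2, which gives a ratio of 1.05 in each (SD 0.00151, n = 2). In fibers, the median was 32.4 in and 27.3 outside the domains in replicate 1, and 32.5 and 27.5 in replicate 2, a ratio of 1.18 in each. Reads per kb are not comparable between libraries, since the counts were not normalized. Islands that touched a domain carried 13.8% and 13.0% of all epithelium island reads and 9.81% and 8.94% of fiber island reads. Each island was counted whole, also where it reached past the domain, and once for every domain it touched. Fewer islands were called in epithelium, and the cause of the difference between these shares was not tested.

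Protein-coding starts were denser in the domains than over the chromosomes as a whole. GENCODE vM21 places 372 of 20807 starts (1.79%) in a domain, which is 26.5 starts per Mb beside 8.45 per Mb over chromosomes 1 to 19, a 3.14-fold difference. The 19501 narrower fiber regions, of shorter length, held 7487 starts. Starts per Mb were not computed for them, so that the density is not shown to be particular to the broad domains. There were 105 domains with 1 start, 79 with 2 or more and 28 with 4 or more, up to 9. In the remaining 128 domains there was no start. Of these, 119 touched a protein-coding gene and 114 lay by at least 50% of their length in 1 gene, so that they were mostly domains of gene bodies, at a median of 22686 bp from the nearest start. Epithelium cover was 40.5% and 42.8% in the domains with a start and 36.9% and 37.1% in those without.

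Of the 372 starts, 211 (56.7%) lay in an island of epithelium replicate 1 and 219 (58.9%) in an island of replicate 2, compared with 13.1% and 15.3% of all protein-coding starts. For the 7487 starts in narrower fiber regions, the shares were 28.8% and 33.6%. Both epithelium replicates covered 163 starts and neither covered 105. Genes with a start in a domain had a median length of 10549 bp, shorter than the 17629 bp of all protein-coding genes and the 19341 bp of genes that start in narrower regions. In the median such gene, 51.0% and 51.2% of the body was covered by epithelium islands and 100% by islands of either fiber replicate.

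In domains with 1 start, the gene lay mainly downstream within the domain. Of their summed length, 26.8% lay upstream of the start, 54.5% in the gene body and 18.7% past its end, and 85 of 105 domains extended further downstream than upstream. Epithelium cover was highest around the start, with 48.4% and 48.98% within 2 kb of it, 34.3% and 37.3% over the rest of the gene body, 28.7% and 27.9% further upstream and 35.9% and 39.9% past the gene end. In fibers the cover of these parts lay between 91.0% and 97.8%. At the start itself, 52.4% and 48.6% of the 105 domains had an epithelium island, at 10 kb downstream 34.3% and 37.1%, and at 10 kb upstream 15.2% and 17.1%. For narrower fiber regions the epithelium shares were 28.8% and 33.6% at the start and 11.4% and 11.5% at 10 kb downstream.

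**Figure D3:**
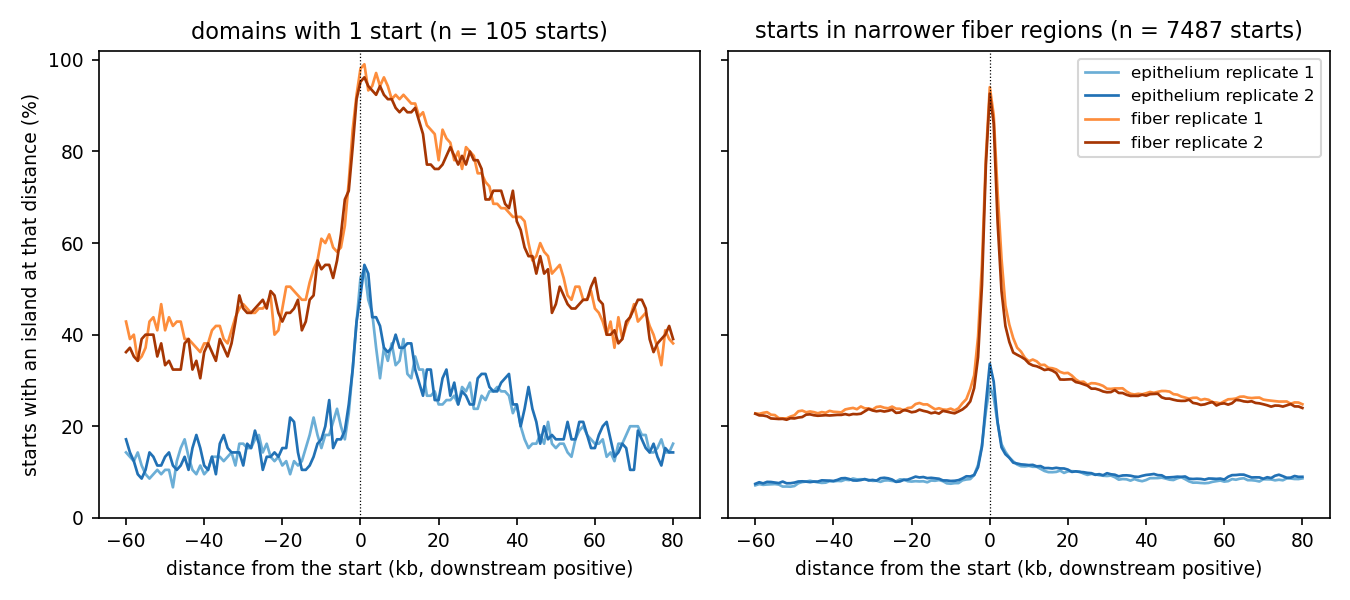
Percent of protein-coding starts with an island at each distance from the start, in kb in the direction of transcription, for each library, in domains with 1 start (105 starts) and in narrower fiber regions (7487 starts). In domains with 1 start, fiber shares fall from 98.1% and 95.2% at the start to 65.7% and 64.8% at 40 kb downstream and 38.1% and 36.2% at 40 kb upstream.

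The widest domain, chr7:29299801-29525400 of 225600 bp, held the starts of Dpf1, a subunit gene of neuronal BAF chromatin remodelling complexes, and Sipa1l3, whose product acts on Rap GTPases and cell polarity in the lens. Sipa1l3 took up 87.9% of it. Fiber islands covered 99.1% and 99.3% of the domain and the epithelium islands 41.6% and 56.3%. The domain chr17:78248401-78385200 of 136800 bp had no start and lay by 93.7% in Crim1, which encodes a transmembrane protein that binds BMP ligands, and was covered by 45.2% and 54.8% in epithelium. The basement membrane collagen genes Col4a1 and Col4a2, which are transcribed away from each other, shared the domain chr8:11240801-11372200 of 131400 bp, with epithelium cover of 34.9% and 45.1%. Over the 10 widest domains the epithelium cover ranged from 29.9% to 98.4% in replicate 1 and from 24.7% to 98.2% in replicate 2.

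Sox1, which encodes a SOXB1 transcription factor that activates gamma-crystallin genes, lay in the domain chr8:12311201-12440400 of 129200 bp, of which the short gene itself took up 3.74%. The fiber islands there were 126200 and 129200 bp long, with 37.5 and 39.3 reads per kb of island. The epithelium islands covered 29.9% and 33.7%, in pieces of at most 8400 and 8600 bp, and neither replicate had an island at the Sox1 start. The others among the 10 widest were at Btbd16 (123200 bp, 30.4% and 24.7%), in Man1c1 (105600 bp, 56.6% and 47.5%), at the SMAD corepressor gene Ski (102400 bp, 74.8% and 52.5%), in the glycosyltransferase gene Galnt2 (100600 bp, 38.0% and 37.0%), on chromosome 7 with 9 starts (100400 bp, 61.8% and 54.6%), and a stretch of repeated sequence on chromosome 6 described with the other repeated domains. The Ski, Man1c1 and Galnt2 domains held no start, and the Ski start lay 192 bp outside its domain.

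**Figure D4:**
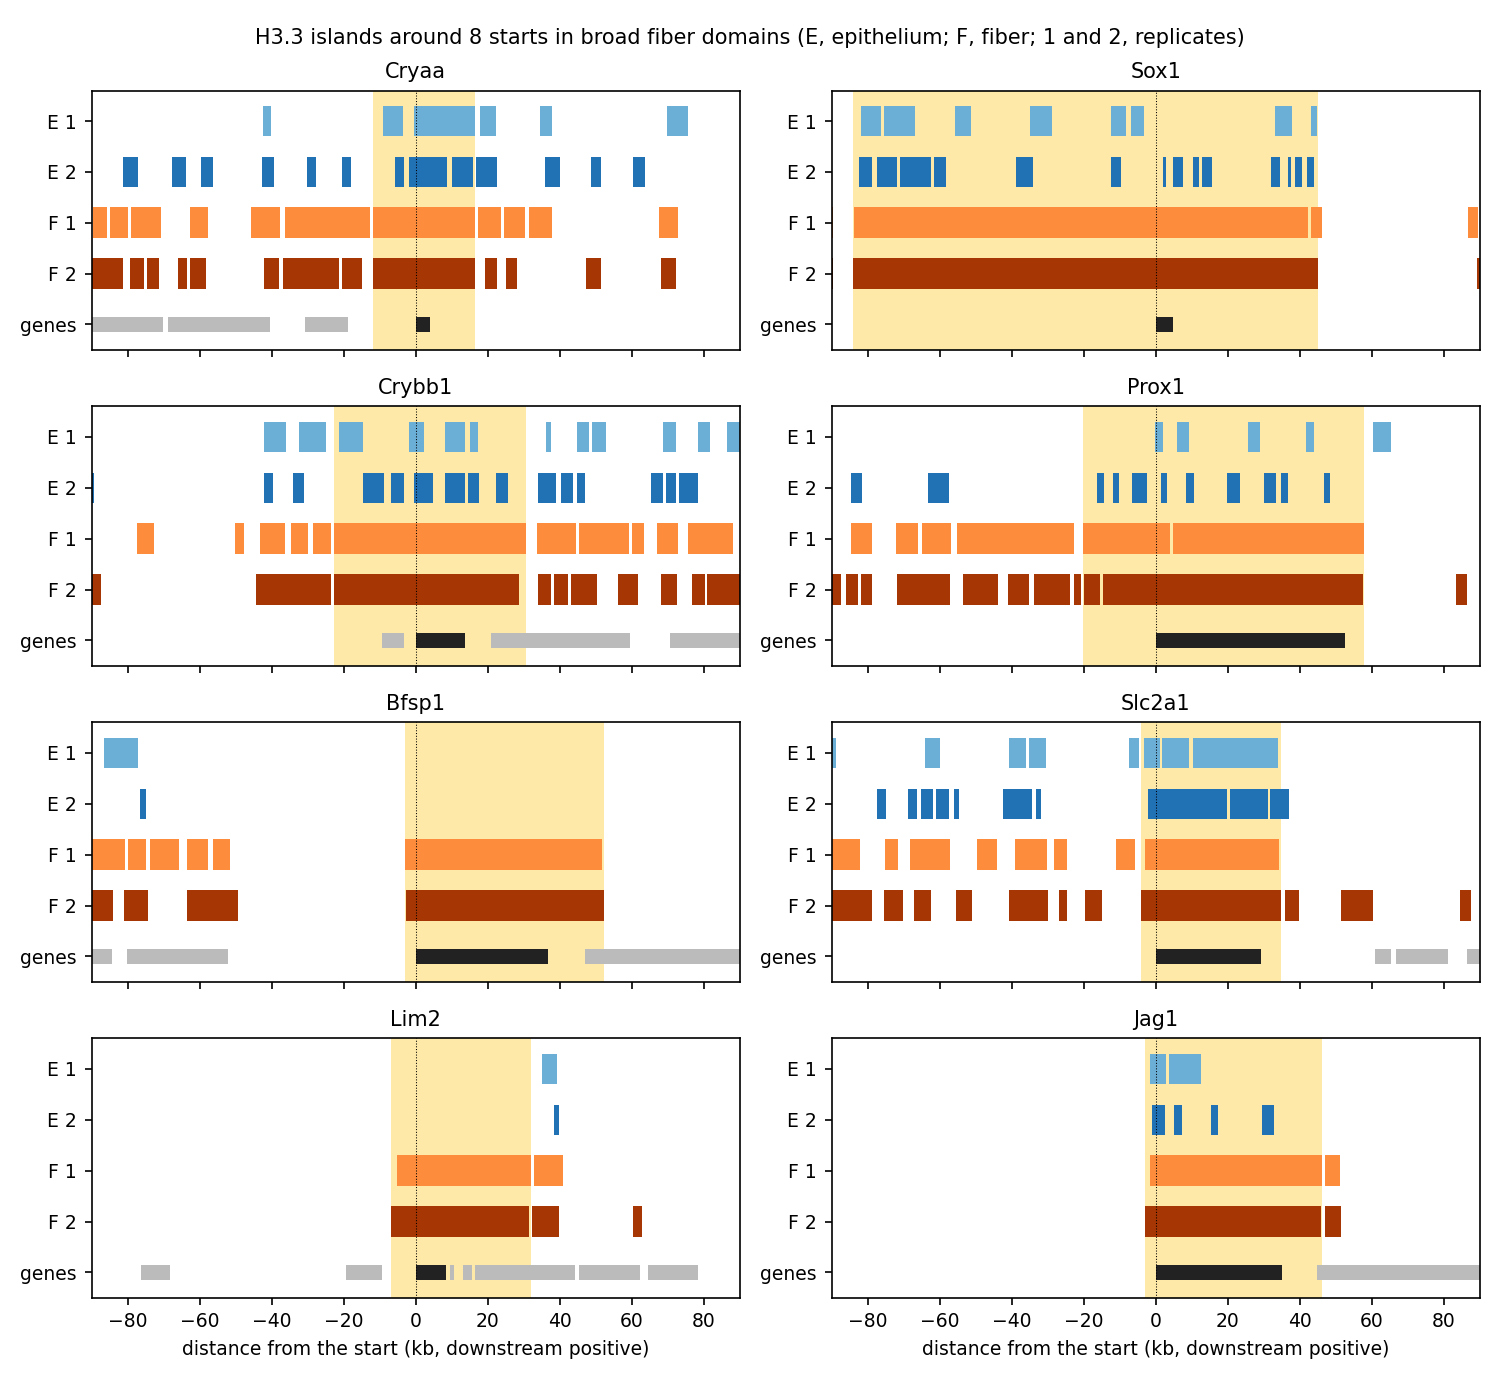
Maps of 8 broad domains with the islands of the 4 libraries and the protein-coding genes, plotted by distance in kb from the start of the named gene in the direction of transcription. The shaded domains are filled by fiber islands, and epithelium islands are short pieces at Sox1, Prox1 and Jag1, absent at Bfsp1 and Lim2 and long at Slc2a1.

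Other domains spanned gene-dense stretches. The domain chr7:44810201-44910600 held 9 starts, among them those of Nup62, Il4i1, Atf5, Akt1s1, Tbc1d17, Ptov1, Med25 and Fuz, which include genes of a nuclear pore subunit and a stress-response transcription factor. The domain chr10:81340001-81436800 of 96800 bp also held 9 starts, from Gipc3 to Smim24, at 52.7% and 51.9% epithelium cover. The third place was shared by 2 domains of 7 starts. In one, chr3:89375001-89445200 (70200 bp, 38.7% and 35.9%), the lens gene Lenep started beside Zbtb7b, Flad1, Cks1b, Shc1, Pygo2 and Pbxip1. The other, chr10:80113201-80183000 (69800 bp, 77.4% and 89.7%), ran from the kinase gene Stk11 to Efna2.

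Of the 16 crystallin genes, which encode the structural proteins of the fiber cytoplasm, 7 (43.8%) had their start in a domain, compared with 1.79% of all protein-coding genes. The list and the domains were chosen with results of these data known, so the share is a description. At limits of 15000 and 30000 bp there were 11 and 4 of 16. The 7 genes lay in 5 domains. Cryaa lay in chr17:31665801-31694200 of 28400 bp, where the fiber islands were 28400 and 28200 bp long, with 45.3 and 41.6 reads per kb. Its epithelium islands were shorter, of 17000 and 10800 bp at the longest, and covered 79.6% and 67.6% of the domain and the whole gene body. Among the crystallin domains Cryaa had the highest epithelium cover in both replicates.

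Cryba4 and Crybb1, neighbours transcribed away from each other, lay with Tpst2 in chr5:112233201-112286400 of 53200 bp. A fiber island of 53200 and 51400 bp spanned both genes, with 50.5 and 47.0 reads per kb of island, whereas the epithelium islands were at most 6600 and 5800 bp long and covered 35.0% and 50.8%. Crybb2 and Crybb3 shared chr5:113053601-113104600 of 51000 bp, with fiber islands of 41000 and 51000 bp and epithelium cover of 42.7% and 44.7%. These 4 beta-crystallin genes are thus in 2 domains on chromosome 5. Cryba1 lay in chr11:77712201-77739400 of 27200 bp, within the body of Nufip2, with fiber islands of 26600 and 26400 bp and epithelium cover of 13.97% and 30.9%. Crygs lay in chr16:22788001-22822400 of 34400 bp, with fiber islands of 32400 and 27200 bp, epithelium cover of 21.5% and 9.88%, and no epithelium island in the gene body.

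The other 9 crystallin genes had a fiber island in both replicates in the body but not a domain at the start. The island at the start was 13000 and 21400 bp long at Crygc and Crygd, 19000 and 23600 bp at Crygn and 20000 and 12600 bp at Cryba2, each reaching the limit in one replicate only. It was 19800 and 9800 bp at Cryge, 16200 and 11200 bp at Cryab, 10000 and 4600 bp at Crygb and 9400 and 2200 bp at Crygf, and at Cryga it was 3600 bp in replicate 1 with none in replicate 2. The gamma-crystallin genes Cryga to Crygf are similar in sequence, so that reads could be shared between them.

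The genes of the fiber membrane and its skeleton gave both of the lens-list domains without an epithelium island. Bfsp1, which encodes filensin of the beaded filament, lay in chr2:143811001-143866200 of 55200 bp, with fiber islands of 54800 and 55000 bp at 37.8 and 35.3 reads per kb and no island of either epithelium replicate. Lim2, which encodes the fiber membrane protein MP20, lay in chr7:43420801-43459600 of 38800 bp, with fiber islands of 37200 and 38400 bp and again no epithelium island. Over all domains, 20 of 312 (6.41%) had no epithelium island, and 2 of the 27 lens-list domains is near that share.

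Sptan1, which encodes the alpha-spectrin of the membrane skeleton, lay in chr2:29959801-30041400 of 81600 bp, with epithelium cover of 32.8% and 32.8%. The tropomodulin gene Tmod1, which caps actin filaments in that skeleton, lay in chr4:46015401-46050800 of 35400 bp (20.3% and 2.82%). It was separated by 1000 bp from chr4:45963401-46014400 of 51000 bp (9.02% and 8.63%), the domain of Tdrd7, whose RNA granule protein is needed for a clear lens. The ezrin gene Ezr lay in a domain of 55600 bp with 49.3% and 47.8%. In this group 5 of 17 genes (29.4%) had a start in a domain, and another 3, Bfsp2, Ank2 and Plec, held at least 1 kb of a domain in the body with the start outside.

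Of 14 gap junction, channel and transporter genes, 4 had a start in a domain. Gja3, which encodes a fiber connexin, lay in chr14:57027201-57069200 of 42000 bp, with fiber islands of 38200 and 23600 bp and epithelium islands of 0 and 2400 bp at the longest. Mip, the fiber water channel gene, lay with Gls2, Spryd4 and Timeless in chr10:128190801-128247600 of 56800 bp, with fiber islands of 56800 and 26000 bp and epithelium islands of 4800 and 4600 bp. The glucose transporter gene Slc2a1 stood apart from both. Its domain, chr4:119104601-119143400 of 38800 bp, was covered by 91.2% and 90.7% in epithelium, with islands of 23600 and 22000 bp beside 37200 and 38800 bp in fibers, and only 0.103% of it was repeated sequence.

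Among 30 lens transcription factor genes, 5 had a start in a domain, namely Pax6, Prox1, Maf, Mafg and Sox1. Pax6, which specifies the eye field and is active in both compartments, lay in chr2:105655201-105678000 of 22800 bp, with epithelium cover of 67.5% and 61.4%. Prox1, a homeodomain factor of fiber elongation, lay in chr1:190112801-190190800 of 78000 bp, with fiber islands of 53000 and 72200 bp and epithelium cover of 14.4% and 29.0%. Maf, which encodes the crystallin activator c-Maf, lay in chr8:115673601-115708600 of 35000 bp, with epithelium cover of 0% and 9.71%. Mafg, which encodes a small Maf protein, lay in a gene-dense domain of 46000 bp (47.8% and 56.5%). Among these 5 genes, Pax6 had the shortest domain and the only one covered over most of its length in both epithelium replicates. Maf and Prox1 were covered over 29.0% of theirs or less and Sox1 over 29.9% and 33.7%, and Mafg lay between Sox1 and Pax6.

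Of 27 FGF, BMP and Notch genes, the receptor gene Fgfr3 (31400 bp, epithelium cover 17.8% and 57.96%) and the Notch ligand gene Jag1 (49200 bp, 27.2% and 22.8%) had a start in a domain, and the epithelium replicates lay far apart at Fgfr3. The ephrin receptor gene Epha2 was the only 1 of 18 adhesion genes (44400 bp, 38.7% and 22.1%), which left none without fiber replicate 1, and Tdrd7 and Carhsp1 (48200 bp, 23.2% and 28.6%) were 2 of 14 RNA-binding protein genes. Of 15 lens capsule genes, Col4a1, Col4a2 and the perlecan gene Hspg2 (82400 bp, 66.7% and 76.5%) were in domains. Of 15 lens epithelium genes, only the Wnt inhibitor gene Sfrp1 was (48600 bp, 0% and 35.8%), and none was without fiber replicate 2.

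Of the remaining lists, actin, tubulin and motor genes had 2 of 24 (Actb and Capzb), translation genes 2 of 15 (Eif4a1 and Rplp0) and chromatin genes 1 of 22 (the H3K27 demethylase gene Kdm6b). No start lay in a domain for 18 organelle removal genes, 16 glycolysis genes, 8 genes of H3.3 and its chaperones, 13 retina, 9 vessel, 10 blood and immune and 8 corneal genes, and 30 Hox genes. The share over all protein-coding starts was 1.79%. A count of 0 in lists of 8 to 30 genes is near that share and does not set these lists apart. Together, the lens lists had 30 of 181 genes in 27 domains. In these domains the median epithelium cover was 23.2% in replicate 1 and 32.8% in replicate 2, beside medians of 39.1% and 41.8% over all 312 domains. An island of both epithelium replicates was present in 22 of the 27, beside 266 of 312 in all. Of the 30 lens starts, 12 lay in an island of both, beside 163 of all 372 starts in domains. The start itself lay in an island of at least 20000 bp in only one fiber replicate at 6 of these genes. The islands at the start were 19800 and 27400 bp long at Ezr, 38200 and 13000 bp at Gja3, 11800 and 27200 bp at Maf, 5800 and 50800 bp at Tdrd7, 44200 and 0 bp at Epha2 and 7600 and 48600 bp at Sfrp1, so that each of these starts rests on 1 replicate.

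**Figure D5:**
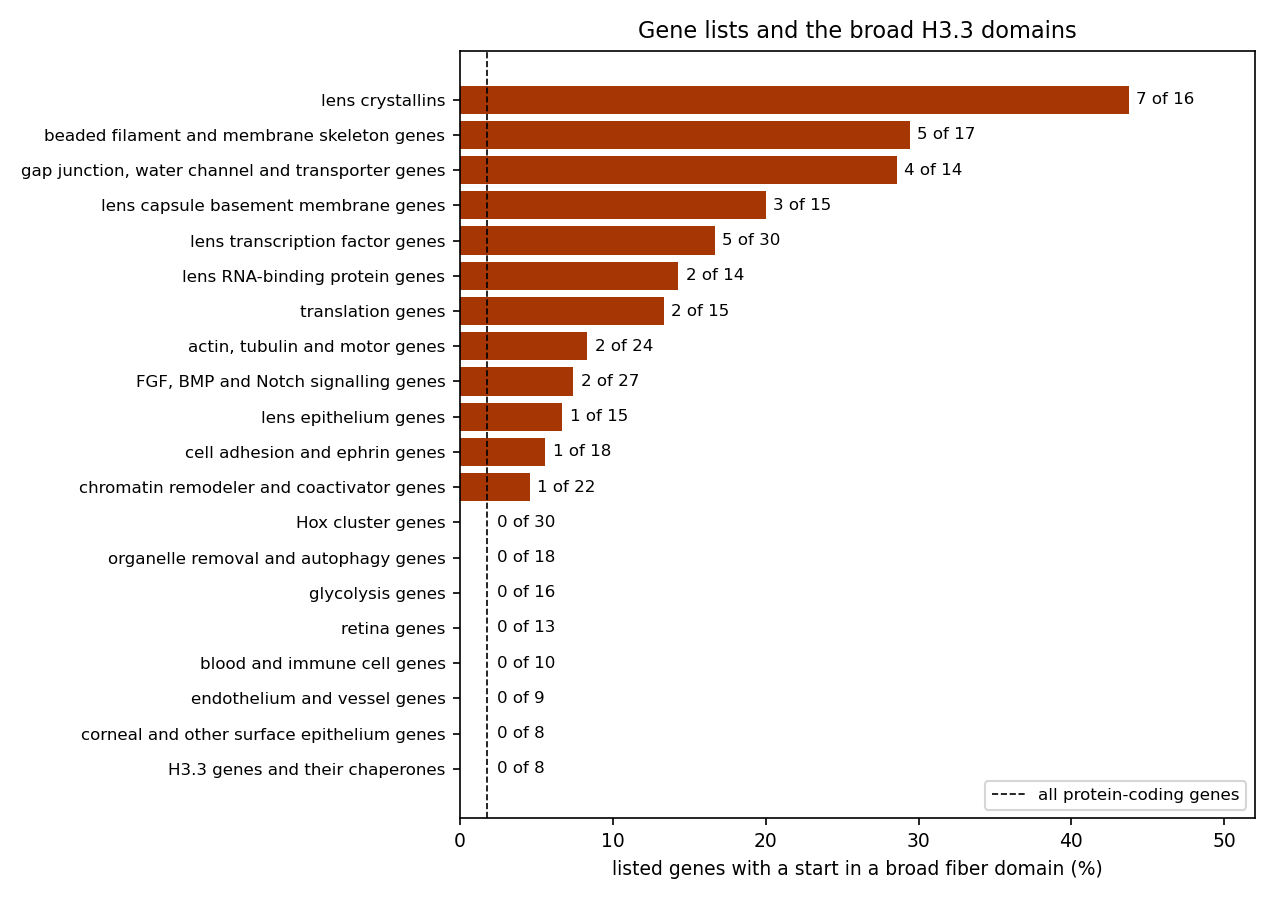
Percent of the genes of each list with a start in a broad fiber domain, with the number of genes beside each bar and a line at 1.79% for all protein-coding genes. Crystallins reach 43.8% (7 of 16) and fiber structural genes 29.4% (5 of 17), and 8 of 20 lists have none.

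Gene bodies added members whose start lay outside. At least 1 kb of a domain lay in the body of 581 of 20807 protein-coding genes (2.79%), 216 of them with the start elsewhere. Among lens RNA-binding protein genes these were Celf1 (epithelium cover 0% and 19.5%), Msi1 (50.3% and 50.3%) and Msi2, which raised that list from 2 to 5 of 14. Msi2, the Musashi gene, held 4 domains in a row with 168800 bp in all, 44.5% of the gene, at epithelium cover from 41.7% to 78.4%. Among adhesion genes Cdh2, Ctnnb1 and Tjp1 brought the count from 1 to 4 of 18. The domains in Cdh2 (N-cadherin, 23200 bp) and Tjp1 (36600 bp) had no epithelium island, and that in Ctnnb1 (35800 bp) was covered by 60.9% and 37.4%. Lamb1 (25600 bp, no epithelium island) and Nid1 (49600 bp, 0% and 5.24%) were added to the lens capsule list. For chromatin these were the Tet3 demethylase gene (19.7% and 17.1%), Kmt2d (39.9% and 68.2%) and Arid1a, and for transcription factors Six3 (30.8% and 68.3%). Over all domains, 20 of 312 (6.41%) had no epithelium island. Fgfr2 held a domain of 62000 bp at chr7:130192801-130254800 (20.3% and 21.6%), and the GENCODE record of that gene, of 2960900 bp, reaches over 2 further domains, that of Btbd16 among them, which lie outside the RefSeq gene of 104358 bp.

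The widest domains with no island of either epithelium replicate were mostly within gene bodies. They were chr10:92198801-92259400 of 60600 bp at the long noncoding RNA gene Gm20757, chr13:30208001-30266200 of 58200 bp by 66.5% in the acyltransferase gene Mboat1, the Bfsp1 domain, a domain of 51200 bp in Epb41l4a, whose product belongs to a family of membrane skeleton linkers, and one of 47200 bp in the RNA silencing gene Tnrc6b. In fibers the islands there were 21600 and 26800 bp at the longest for Gm20757, with 26.7 and 26.9 reads per kb, and 53200 and 30800 bp for Mboat1, with 31.7 and 31.6. Against these, the Bfsp1 domain had both the longest islands and the highest read density of the 5 in each replicate.

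At the other end, 7 domains were covered by 90% or more in both epithelium replicates, and in 5 of them over 20% of the 75-nt stretches, 1 read length, occur more than once in the genome. The widest was chr6:114489801-114637600 of 147800 bp, without a gene, at 98.4% and 98.2% cover, 81.8% repeated stretches and 62.8 to 75.8 reads per kb in the 4 libraries. Next were chr17:6419201-6497200 of 78000 bp at Dynlt1b (64.5% repeated), chr17:6598401-6665200 of 66800 bp at Dynlt1c, Dynlt1f and Sytl3 (64.4%), chr6:47645601-47687000 of 41400 bp (83.0%) and the Slc2a1 domain. The remaining pair were chr6:47737001-47773200 of 36200 bp (89.1%) and chr4:62492001-62526200 of 34200 bp at the heme synthesis gene Alad with Hdhd3, Pole3 and 4933430I17Rik (0.513%).

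Over all domains, 3.69% of the 75-nt stretches were repeated, with a median of 0.677%, beside 1.38% in 1951 narrower regions. The 9 domains of over 20% repeated stretches were covered by 90.1% and 90.8% in epithelium, and the other 303 by 36.9% and 38.3%. The part of repeated reads in the islands of these 9 domains was not tested.

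The domains were rich in G and C, with 49.998% beside 48.0% in the narrower fiber regions and 41.9% over chromosomes 1 to 19, and 303 of 312 exceeded the latter value. CpG dinucleotides numbered 16.6 per kb in the domains, 15.9 in narrower regions and 8.51 over the chromosomes. The domains were therefore close in composition to other fiber regions. Chromosome 11 had the most domains per length, with 33 or 2.70 per 10 Mb, followed by chromosome 19 (16, 2.60) and chromosome 8 (30, 2.32), whereas chromosome 1 had 8 (0.409) and chromosome 3 had 7 (0.437). Of 293 gaps between neighbouring domains on a chromosome, 54 were of up to 100 kb, with a median gap of 1299800 bp.

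Of the 9 domains that touched no protein-coding gene, 3 held no gene at all and the others held noncoding genes. One, chr2:180378601-180437200 of 58600 bp, held the hairpins of Mir1a-1 and Mir133a-2, which are known from muscle, and was covered by 100% and 95.2% in fibers and by 0% and 16.0% in epithelium. The imprinted H19 gene with Mir675 lay in chr7:142548001-142580200 of 32200 bp (40.4% and 37.3% in epithelium), and the nuclear RNA gene Malat1 in chr19:5786001-5821000 of 35000 bp (58.3% and 73.1%). The others were the 3 repeated stretches, on chromosome 6 and without a gene, the Gm20757 domain, and 2 domains at 4930578M01Rik and 2700054A10Rik. In all, 46 of 2054 miRNA genes (2.24%) had their start in a domain, 36 of them inside a protein-coding gene. The hairpin lay in an epithelium island for 23 and 26 of 46, and in a fiber island for 46 and 45. The share of all 2054 miRNA genes with the hairpin in an epithelium island was not computed, so these counts are not shown to be high or low. Mir191 and Mir425 lay together in chr9:108548801-108584400 of 35600 bp, where both hairpins were in islands of all 4 libraries. For 4 of these hairpins, which lie outside protein-coding genes in the annotation, 5 mature sequences are shown with the seed, bases 2 to 8, in capitals (RefSeq, GRCm38.p6).
miR-1a-1-5p: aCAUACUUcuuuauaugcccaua
miR-675-5p: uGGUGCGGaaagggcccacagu
miR-675-3p: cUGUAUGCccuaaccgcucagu
miR-191-5p: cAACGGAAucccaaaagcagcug
miR-425-5p: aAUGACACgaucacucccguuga

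No 2 of these 5 shared a seed. RefSeq entries were found for 34 of the 46 genes, giving 60 mature sequences with 59 seeds, of which 1 was shared, by miR-6927-3p and miR-6945-3p.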

How the data were processed

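H3.3 ChIP-seq islands of 2 lens epithelium and 2 lens fiber libraries were analysed. Per the sources, the authors mapped 75-nt single-end reads to mm10 with BWA and called islands in each library separately with SICER2 (window 200 bp, gap 600 bp, false discovery rate 0.01). For every island, the deposited lists hold a start, an end and a raw read count, not normalized by the authors. Depth, duplicate removal and the use of an input are not given in the sources used here. Counts of islands and cover therefore reflect library depth as well as H3.3, and the number of libraries limits the precision. Pooled input and bisulfite libraries were not analysed here.

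Domains were built from fiber islands of at least 20000 bp that overlapped a kept island of the other fiber replicate by at least 1 bp. bedtools 2.31.1 gave the identical 312 domains. The steps were checked on simulated islands. Cover was the percent of bases in islands of a library, density the reads per kb of island, and starts were those of GENCODE vM21 gene records on GRCm38. Positions count from 1. Promoter and miRNA sequences were read from GRCm38.p6 and RefSeq. Python 3.11.15, numpy 2.4.6, numba 0.67.0 and matplotlib 3.10.9 were used.

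Samples were grouped by their titles, and no test was run. The domains and gene lists were chosen with earlier results of these data known. Named genes were those with a start in the 10 widest domains, members of the gene lists in domains, the domains nearest the length limit and the widest left out, the widest with no epithelium island, with at least 90% cover in both epithelium replicates or without a start, those with the most starts, and miRNA genes. The genes with a domain in the body only, the narrowest pair of the domains of at least 90% cover and the long noncoding RNA genes were named after their values were seen. Some genes of the domains are not reported here. Alternatives changed the length limit, overlap, outline, joining of islands, density, libraries, starts and chromosomes.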

Additional observations from a re-analysis of the deposited data

How the results depend on the processing

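Of 84 alternative values of 8 results, 38 stayed within the limit set for a move and 46 moved. That limit differed between results. It was narrow for GC content, where a change from 49.998% to 50.1% counted as moved, and wide for counts. The 372 starts became 503 with the start of any transcript and 268 with the part covered in both fiber replicates, and both values stayed within it. The number of starts therefore depends on these settings too. With a length limit of 15000 bp there were 641 domains with 691 starts, 35.7% epithelium cover, 54 domains without an epithelium island, 128 covered by 50% in both epithelium replicates, a density ratio of 1.06 and 49.6% GC. With 30000 bp there were 104 domains, 143 starts, 44.6% cover, 4 without, 32 covered, a ratio of 1.06, 17.8% of single-start domains upstream and 50.6% GC. With islands within 1000 bp joined first, there were 722 domains, 975 starts, 30.5% cover, 72 without, a ratio of 1.03, 20.2% upstream and 49.04% GC. An overlap of at least 50% gave 40.8% cover, a ratio of 1.06 and 50.1% GC. The part covered in both fiber replicates gave 45.0% cover, 48 domains without, 122 covered, a ratio of 1.06 and 50.5% GC, and islands of at least the median density gave 50.1% GC. Leaving out 1 replicate gave 529 to 732 domains, 441 to 664 starts, 35.6% to 40.4% cover, 26 to 75 domains without an epithelium island, 107 to 141 covered by 50% and 49.7% to 49.8% GC. The highest of these counts came without fiber replicate 2. Leaving out the 9 domains of over 20% repeated sequence, an alternative chosen after seeing the data, gave 37.6% cover, a ratio of 1.05 and 49.8% GC. Crystallin genes with a start in a domain numbered 11, 4 and 12 with 15000 bp, 30000 bp and joined islands, and glycolysis genes, none of which had one, numbered 4 without fiber replicate 1. The cause of these moves was not tested beyond the islands that each alternative adds or removes. Epithelium cover stayed below 50% under every alternative run. No paired analysis was possible because no result comes from a test and equal replicate numbers are not stated to mark shared animals. Depth was unknown, so that a missing epithelium island is a missing call, and no test was run, since an exact permutation test of 2 libraries against 2 cannot pass the usual threshold.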
